A study of Mus musculus with 3 samples.

Results

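A group of 4 features of a single-cell experiment is described here: Tnfsf4, which encodes the T cell costimulatory ligand OX40L, the blue and red fluorescent reporters BFP and tdRFP, and SV40PolyA, a viral polyadenylation signal listed as a feature of its own. They were taken by name, 4 of the 22548 genes of the deposited table. The cells came from ear-draining lymph nodes of mice given MC903, a vitamin D analogue that inflames skin, on days 0, 2 and 4, and were sorted on day 5. All mice carried a Siglech iCre transgene (SiglechiCreTg/0), a ROSA26 allele in which RFP follows a loxP-flanked stop, and 1 Tnfsf4 knock-in copy beside a normal one (Tnfsf4KI/+). The labels call these mice BFP and RFP dual reporters, which leaves the Tnfsf4 knock-in as the place of BFP. Migratory dendritic cells outside the Langerhans cell and cDC1 lineages were gated as B220-, MHCII high, CD11c low to intermediate, XCR1- and CD326-. They were sorted into 4 populations by both fluorescent proteins, and each was given its own hashtag antibody. Into the pool went 5200 cells of BFP+RFP+, 5200 of BFP-RFP+, 10400 of BFP+RFP- and 5200 of BFP-RFP-. How many mice were pooled is not given in the sources used here, and no untreated mice and no mice without reporters were analysed here.

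OX40L is a membrane protein of the TNF family that antigen-presenting cells show to T cells carrying the receptor OX40. On dendritic cells it is known as a signal that favours type 2 T helper responses, including in skin inflamed by the cytokine TSLP. A knock-in reporter is read from the gene's own promoter and so is meant to follow present transcription. A Cre-activated reporter at ROSA26 is different, since it stays on in a cell and its progeny after Cre has acted, whether or not the Cre driver is still used. Siglech is best known as a gene of plasmacytoid dendritic cells and their precursors.

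The population of each cell was read from a hashtag barcode, and 4 surface proteins were read from antibody barcodes of the same kind. These sequences are shown because every comparison below rests on them. They are printed 5′ to 3′ as deposited, in capitals throughout because the whole run is the barcode.
Hashtag 1, BFP+RFP+: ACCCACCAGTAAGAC
Hashtag 2, BFP-RFP+: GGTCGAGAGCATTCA
Hashtag 3, BFP+RFP-: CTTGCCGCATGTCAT
Hashtag 4, BFP-RFP-: AAAGCATTCTTCACG
CD8a: TACCCGTAATAGCGT
CD11b: TGAAGGCTCATTTGT
CD172a: GATTCCCTTGTAGCA
CD301b: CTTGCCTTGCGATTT
All 8 are 15 bases long. Pairs of hashtags differed at 11 to 13 positions, and the closest pair among all 8 tags differed at 7.

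The mRNA, antibody and hashtag libraries share 1 list of 6079 barcodes from 1 capture. A barcode was kept as a cell where 1 hashtag held at least 80% of its hashtag molecules, it had at least 1000 mRNA molecules (unique molecular identifiers, UMIs), and at most 10% of these were mitochondrial. This left 5023 cells, of which 842 were BFP+RFP+, 982 were BFP-RFP+, 2185 were BFP+RFP- and 1014 were BFP-RFP-. In that order, their median depth was 15182, 14330, 14850 and 13884 UMIs. Clusters named for T and NK cells or for B cells by their markers held 5.70%, 7.74%, 5.95% and 4.14% of the populations. Among all barcodes with a hashtag at 80%, those under the depth limit included, 3.42%, 7.10%, 2.79% and 12.8% had over 10% mitochondrial UMIs. The part these differences play in the levels below was not tested. Every population is 1 sample. No test between populations was therefore made, and each interval is an exact 95% interval that covers counting error only. UMIs cannot tell fewer expressing cells from less RNA per cell in a summed level, so shares of cells are given beside it.

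Tnfsf4 mRNA followed the BFP protein by which the cells had been sorted, and it also differed with RFP. Summed over cells and given as UMIs per 1000000 mRNA UMIs (CPM), Tnfsf4 stood at 305 (interval 296 to 315) in BFP+RFP+ cells. It stood at 102 (98.6 to 105) in BFP+RFP- cells, 53.0 (49.4 to 56.7) in BFP-RFP+ cells and 19.8 (17.6 to 22.2) in BFP-RFP- cells. No interval overlapped a neighbour's in this order. Both BFP+ populations lay above both BFP- populations, and within each BFP state the RFP+ population was the higher one.

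The difference with BFP was the larger one for Tnfsf4. BFP+ cells had 5.76 times (5.35 to 6.22) the level of BFP- cells among RFP+ cells and 5.13 times (4.56 to 5.81) among RFP- cells. RFP+ cells had 3 times (2.87 to 3.13) the level of RFP- cells among BFP+ cells and 2.67 times (2.34 to 3.06) among BFP- cells. On the log2 scale these 4 differences were 2.53, 2.36, 1.58 and 1.42. Of the 9463 genes with at least 100 UMIs in the pair of populations, Tnfsf4 had the highest ratio for BFP among RFP+ cells. It ranked 13 of 10237 for BFP among RFP- cells, 27 of 10139 for RFP among BFP+ cells and 52 of 9612 for RFP among BFP- cells. The comparisons share populations in pairs and are not independent of one another.

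BFP mRNA, the transcript of the blue reporter, had the same order of populations at lower counts. It measured 41.4 CPM (38.2 to 44.9) in BFP+RFP+ cells, 16.8 (15.5 to 18.2) in BFP+RFP-, 7.18 (5.91 to 8.63) in BFP-RFP+ and 2.35 (1.64 to 3.27) in BFP-RFP- cells. The transcript thus sided with the sorted protein in both RFP states, by 5.75 times (4.71 to 7.13) among RFP+ and 7.05 times (5.08 to 10.4) among RFP- cells. With RFP, BFP mRNA differed 2.47 times (2.20 to 2.77) among BFP+ cells and 3.02 times (2.07 to 4.59) among BFP- cells.

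The red reporter behaved in another way. tdRFP measured 23.5 CPM (21.0 to 26.1) in BFP+RFP+ and 21.0 (18.8 to 23.4) in BFP-RFP+ cells, and its ratio between them was 1.12 (0.956 to 1.30). It was nearly absent from both RFP- populations, at 0.169 CPM (6 UMIs in 2185 cells) with BFP and 0.672 (10 UMIs in 1014 cells) without. RFP+ cells therefore had 129 times (63.3 to 382) the level of RFP- cells among BFP+ cells and 29.8 times (16.8 to 65.8) among BFP- cells. tdRFP mRNA did separate the populations as labelled, and its level among RFP+ cells varied little with BFP.

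SV40PolyA differed with both reporters. It measured 36.8 CPM in BFP+RFP+, 15.8 in BFP-RFP+, 9.24 in BFP+RFP- and 2.82 in BFP-RFP- cells. Its ratio was 2.32 (2.00 to 2.72) and 3.24 (2.37 to 4.63) for BFP, among RFP+ and RFP- cells, and 3.98 (3.46 to 4.58) and 5.55 (4.03 to 7.96) for RFP, among BFP+ and BFP- cells. Siglech, the driver of the Cre, gave 25 UMIs in 12 BFP-RFP+ cells, of which 1 cell held 12, and 1 UMI in each of the other three populations. A cell sorted as RFP+ thus rarely had a Siglech transcript at this depth.

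**Figure D1:**
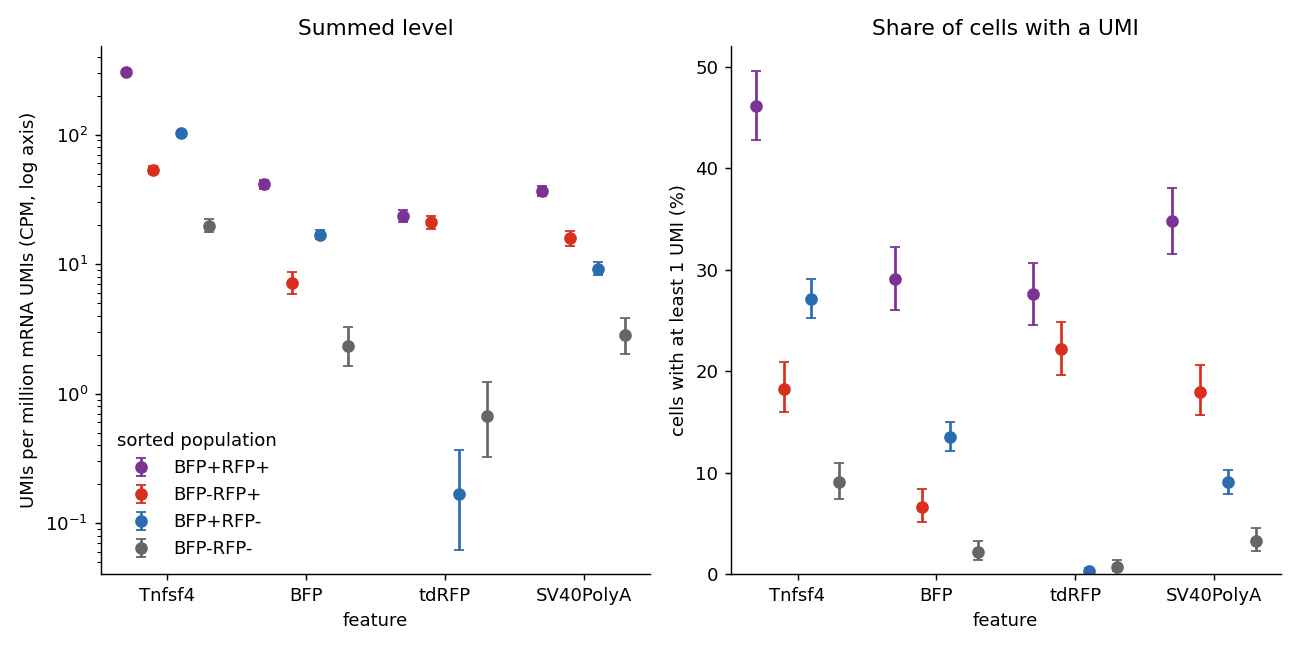
Levels of the 4 features in the 4 sorted populations. Left, UMIs per 1000000 mRNA UMIs summed over the cells of each population, on a log axis with exact Poisson 95% intervals. Right, the percentage of cells with at least 1 UMI, with exact binomial 95% intervals. Tnfsf4 and BFP keep 1 order of populations, while tdRFP stands at 23.5 and 21.0 CPM in the RFP+ populations and under 1 CPM in the others.

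Most cells of every population had no Tnfsf4 UMI, and a minority held most of the transcript. A Tnfsf4 UMI was found in 46.2% (42.8 to 49.6) of BFP+RFP+ cells, 27.1% (25.3 to 29.1) of BFP+RFP-, 18.3% (16.0 to 20.9) of BFP-RFP+ and 9.07% (7.38 to 11.0) of BFP-RFP- cells. After each cell was thinned to 5000 mRNA UMIs, leaving out 56, 153, 82 and 86 shallower cells, the shares were 32.8%, 15.8%, 10.4% and 4.74% in the same order. The order of populations was the same with and without thinning. The highest cell held 209 Tnfsf4 UMIs in BFP+RFP+, 94 in BFP+RFP-, 53 in BFP-RFP+ and 32 in BFP-RFP-. In BFP+RFP+ cells, the top 10% of cells by Tnfsf4 held 70.4% of all its UMIs. That share was 83.7% in BFP+RFP- and 89.4% in BFP-RFP+ cells. It was 100% in BFP-RFP- cells, where under 10% had a UMI. Among cells with a UMI the median was 4 in BFP+RFP+, 2 in BFP+RFP- and BFP-RFP+ and 1 in BFP-RFP- cells.

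The high end of the distribution was not reserved to BFP+RFP+ cells. The highest 10% of BFP+RFP+ cells began at 820 CPM per cell, a level reached by 85 of 842 of them. It was reached by 42 of 2185 BFP+RFP- cells (1.92%, 1.39 to 2.59), 7 of 982 BFP-RFP+ cells (0.713%, 0.287 to 1.46) and 3 of 1014 BFP-RFP- cells (0.296%, 0.0611 to 0.862).

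Clusters of other lineages give shares to set beside those of the sorted populations. Whether free RNA is the source of the UMIs in these clusters was not tested. In the T and NK-like cluster, at a median depth of 7764 UMIs before thinning, 2.27% of 176 cells had a Tnfsf4 UMI, 1.70% a BFP UMI and 1.14% a tdRFP UMI. At 5000 UMIs these shares were 0.699% (0.0177 to 3.83), 1.40% (0.170 to 4.96) and 0.699% (0.0177 to 3.83) of 143 cells. In the B-like cluster, at a median of only 4255 UMIs, 3.33% of 120 cells had a Tnfsf4 UMI, 1.67% a BFP UMI and 4.17% a tdRFP UMI. For tdRFP these were 4 of 55 cells sorted as RFP+ (7.27%) and 1 of 65 sorted as RFP- (1.54%). SV40PolyA was found in 1.70% of the T and NK-like and 5% of the B-like cells. The tdRFP shares of BFP+RFP- (0.275%, 0.101 to 0.597) and BFP-RFP- cells (0.690%, 0.278 to 1.42) lay below these levels. Whether those shares are background was not tested, since both clusters pooled RFP+ with RFP- cells and were shallower. Among RFP- cells of the T and NK-like cluster the tdRFP share was 0.935% (0.0237 to 5.10), and the intervals overlapped. The BFP share of BFP-RFP- cells (2.17%, or 0.862% thinned) and their SV40PolyA share (3.25%) lay at or near the levels of the clusters. These shares alone therefore do not show expression there. For the thinned Tnfsf4 share of BFP-RFP- cells, the interval of 3.47 to 6.31 overlapped that of the T and NK-like cluster. The Tnfsf4 shares of the other three populations lay above the cluster's by more than both intervals.

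Within each population, cells with a Tnfsf4 UMI more often had a BFP UMI than cells without one. Among BFP+RFP+ cells thinned to 5000 UMIs, BFP was found in 28.3% of cells with a Tnfsf4 UMI and 7.20% of cells without. The same shares were 16.1% and 3.45% in BFP+RFP- cells. Cells sorted as BFP- showed the pattern too, with 16.0% (9.22 to 25) against 0.744% (0.274 to 1.61) in BFP-RFP+ cells, where 15 of the 21 cells with BFP also had Tnfsf4. In BFP-RFP- cells the shares were 6.82% (1.43 to 18.7) and 0.566% (0.184 to 1.31), with 3 cells positive for both. tdRFP differed little between cells with and without Tnfsf4 at this depth. It was found in 12.0% (8.31 to 16.6) of BFP+RFP+ cells with Tnfsf4 and 9.28% (6.94 to 12.1) of those without, and in 9.57% (4.47 to 17.4) and 8.81% (6.94 to 11.0) of BFP-RFP+ cells.

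Detection of BFP also climbed with the amount of Tnfsf4 in the cell. In BFP+RFP+ cells, the share with a BFP UMI was 10.6% at 0 Tnfsf4 UMIs, 31.0% at 1, 28.0% at 2, 46.2% at 3 to 4, 59.7% at 5 to 9 and 71.7% at 10 or more. In BFP+RFP- cells these shares were 5.28%, 20%, 33.6%, 30.9%, 41.0% and 73.1%. In BFP-RFP+ cells they were 2.24%, 15.8%, 39.3%, 8.70%, 45.2% and 36.4%, with 22 to 31 cells in each of the last 4 classes. The climb was therefore uneven in that population. In BFP-RFP- cells the shares were 0.976%, 5.88%, 12.5%, 15.4%, 50% and 50%, with only 4 to 16 cells in each of the last 4 classes.

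Depth moved with these classes. Median depth went from 12912 UMIs at 0 Tnfsf4 UMIs to 21032 at 10 or more in BFP+RFP+ cells, and from 13546 to 26765 in BFP+RFP- cells. tdRFP, which is read from the same cells, gives a measure beside this. In BFP+RFP+ cells it went from 23.4% at 0 Tnfsf4 UMIs to 37.5% at 10 or more, with 25.4% to 34.0% in the classes between. In BFP-RFP+ cells it was 20.1% at 0, 28.9% at 1, 35.7% at 2, 34.8% at 3 to 4, 35.5% at 5 to 9 and 27.3% at 10 or more. Detection of tdRFP was thus also higher in most classes with Tnfsf4 than at 0, by less than that of BFP in BFP+RFP+ cells.

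**Figure D2:**
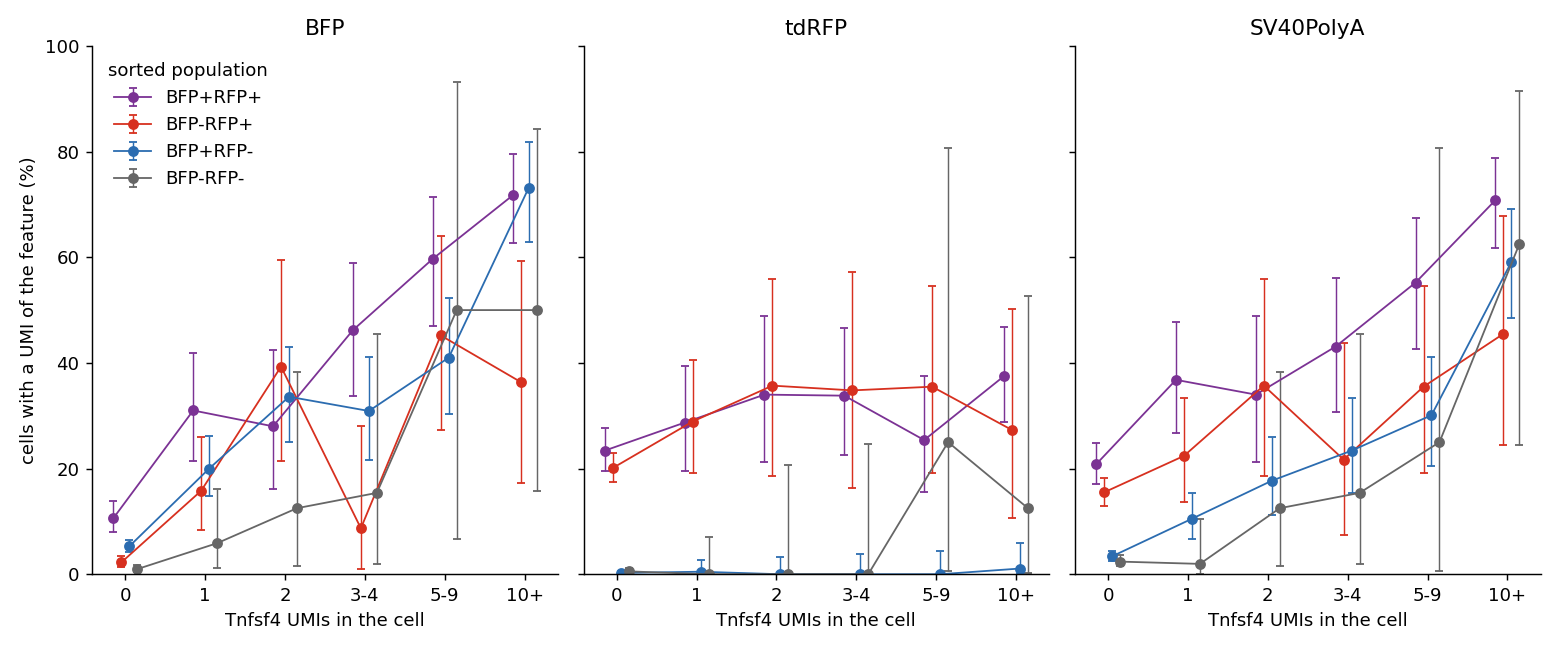
Share of cells with a UMI of BFP, tdRFP and SV40PolyA by the number of Tnfsf4 UMIs in the cell, for the 4 sorted populations, without thinning. Points are percentages of the cells in a class and bars are exact binomial 95% intervals. BFP climbs from 10.6% to 71.7% in BFP+RFP+ and from 5.28% to 73.1% in BFP+RFP- cells, while tdRFP goes from 23.4% to 37.5% in BFP+RFP+ cells.

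Correlations over cells gave the same picture as a description. They share library, depth and free RNA between points and are of sparse counts. Pearson's r between BFP and Tnfsf4, as log2(UMIs per 10000 + 1) of single cells, was 0.49 over 842 BFP+RFP+ cells, 0.44 over 2185 BFP+RFP-, 0.37 over 982 BFP-RFP+ and 0.21 over 1014 BFP-RFP- cells. Between tdRFP and Tnfsf4 it was 0.05 and 0.01 in the RFP+ populations, and between tdRFP and BFP 0.06 and 0.03.

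Without thinning, SV40PolyA was found more often in cells with a reporter transcript. In BFP+RFP- cells it was found in 3.82% of cells with neither reporter transcript and in 42.3% of cells with BFP only. With the number of BFP UMIs in those cells it stood at 23.8% at 1, 52.4% at 2 and 78.8% at 3 or more. In BFP+RFP+ cells it was found in 16.2% with neither, 37.1% with tdRFP only, 60.8% with BFP only and 80.4% with both. In BFP-RFP+ cells these shares were 12.7%, 29.0%, 42.5% and 48.0%. SV40PolyA was found more often beside BFP than beside tdRFP in BFP+RFP+ cells. Cells with a reporter UMI were deeper, with a median of 20545 UMIs for BFP only against 14122 for neither in BFP+RFP- cells. Thinned to 5000 UMIs, SV40PolyA was found in 18.9% (12.1 to 27.5) of BFP+RFP- cells with BFP and 2.45% (1.80 to 3.24) without. For tdRFP the thinned shares were 16.2% (8.95 to 26.2) with and 15.3% (12.7 to 18.2) without in BFP+RFP+ cells, so at this depth no link to tdRFP was detectable within that population. Thinned to 10000 UMIs, they were 36.1% (27.9 to 44.9) with and 23.4% (20 to 27.2) without, and the intervals no longer overlapped.

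The number of BFP UMIs per 100 Tnfsf4 UMIs compares the reporter with its gene between groups of cells. It is not a ratio of transcript numbers, since the 2 features may be captured unequally and the share of Tnfsf4 UMIs that comes from the knock-in copy is not given in the sources used here. It was 13.6 (12.4 to 14.8) in BFP+RFP+, 13.5 (11.0 to 16.5) in BFP-RFP+, 16.5 (15.1 to 18.0) in BFP+RFP- and 11.9 (8.11 to 16.9) in BFP-RFP- cells. Among RFP+ cells the ratio was thus nearly the same with and without BFP protein. Among RFP- cells it was lower without BFP protein, with intervals that overlapped.

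Between clusters of cells the ratio differed far more than between sorted populations. The cells were clustered on genes that did not include the 4 features or Siglech, which gave 10 clusters numbered from 0, of which only the B-like and the T and NK-like cluster could be named from markers. The dendritic cell migration genes Ccr7, a chemokine receptor, and Fscn1, an actin-bundling protein, stood at 770 CPM or more in each of the 8 others. Cluster 1, with 1138 cells, had 27.7 BFP UMIs per 100 Tnfsf4 UMIs (25.1 to 30.5), and cluster 2, with 627 cells, had 10.1 (9.22 to 11.0). Cluster 3 had 9.99 and cluster 5 had 18.7. The difference between clusters 1 and 2 was present in all 4 populations, at 29.0 against 8.97 in BFP+RFP+, 27.6 against 12.0 in BFP+RFP-, 23.7 against 10.3 in BFP-RFP+ and 25 against 10.5 in BFP-RFP- cells.

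Tnfsf4 itself was concentrated in cluster 2. This cluster held 12.5% of the kept cells and 5640 of the 9073 Tnfsf4 UMIs, at 378 CPM (368 to 388). A finer clustering placed 81 of its 627 cells in a macrophage-like cluster, and the cells were therefore also taken apart, a step chosen after seeing the data. These 81 cells had the complement gene C1qa, a macrophage marker, at 789 CPM and the lysozyme gene Lyz2 at 5231 CPM, and Tnfsf4 at 62.8 CPM (52.0 to 75.2). The other 546 cells had C1qa at 0.921 CPM and Lyz2 at 33.2 CPM, and Tnfsf4 at 424 CPM (412 to 435). They held 5521 of the cluster's 5640 Tnfsf4 UMIs, so most of its transcript lay outside the macrophage-like cells. The next levels were 91.7 CPM (87.6 to 95.9) in cluster 1, 69.5 (63.3 to 76.1) in cluster 5, 58.5 (54.4 to 62.8) in cluster 3, 29.9 (17.1 to 48.6) in cluster 8 and 23.5 (19.6 to 28.0) in cluster 7. The intervals of clusters 8 and 7 overlapped, and those of the 4 clusters above them did not. Clusters 4 and 0 and the B-like and T and NK-like clusters lay at 8.87, 7.73, 8.35 and 2.90 CPM.

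Within cluster 2 the order of the sorted populations was kept. Tnfsf4 measured 741 CPM in BFP+RFP+, 368 in BFP+RFP-, 130 in BFP-RFP+ and 64.2 in BFP-RFP- cells. Without the macrophage-like cells it measured 770, 393, 151 and 95.9 CPM in that order. The 10 macrophage-like cells of BFP+RFP+ stood at 303 CPM (241 to 376). Of the 81 macrophage-like cells, 27 were BFP-RFP+ and 32 were BFP-RFP-. In clusters 1, 2, 3 and 5, BFP+ cells were above BFP- cells in both RFP states, with log2 differences from 1.44 to 3.08. Among RFP- cells the BFP difference was 2.18 (1.00 to 3.82) in cluster 0, 1.08 (0.21 to 2.20) in cluster 4 and 0.63 (-0.10 to 1.53) in cluster 7. The difference with RFP also varied between clusters. It was 1.01 in both BFP states in cluster 2. Among BFP+ and BFP- cells it was 0.65 and 1.34 in cluster 1, and 0.75 (0.36 to 1.11) and 0.51 (-0.17 to 1.22) in cluster 5. In cluster 3 it was -0.21 (-0.53 to 0.08) among BFP+ cells and 0.48 (-0.10 to 1.05) among BFP- cells. Among BFP+ cells of cluster 4 it was -0.39 (-1.57 to 0.52), and among BFP- cells of cluster 7 0.09 (-1.24 to 1.29). When the 6 clusters with at least 20 cells in every population were given the same weight in each, the RFP difference among BFP+ cells was 0.73 in place of 1.58 and among BFP- cells 0.93 in place of 1.42. The BFP difference was then 2.13 among RFP+ cells in place of 2.53. Clusters 0, 6, 7 and 8 did not reach that number of cells and did not enter, so the cells compared were not all the same. The T and NK-like cluster was 1 of the 6. With this weighting the RFP difference in Tnfsf4 was smaller. The parts played by the weights and by the clusters left out were not tested.

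**Figure D3:**
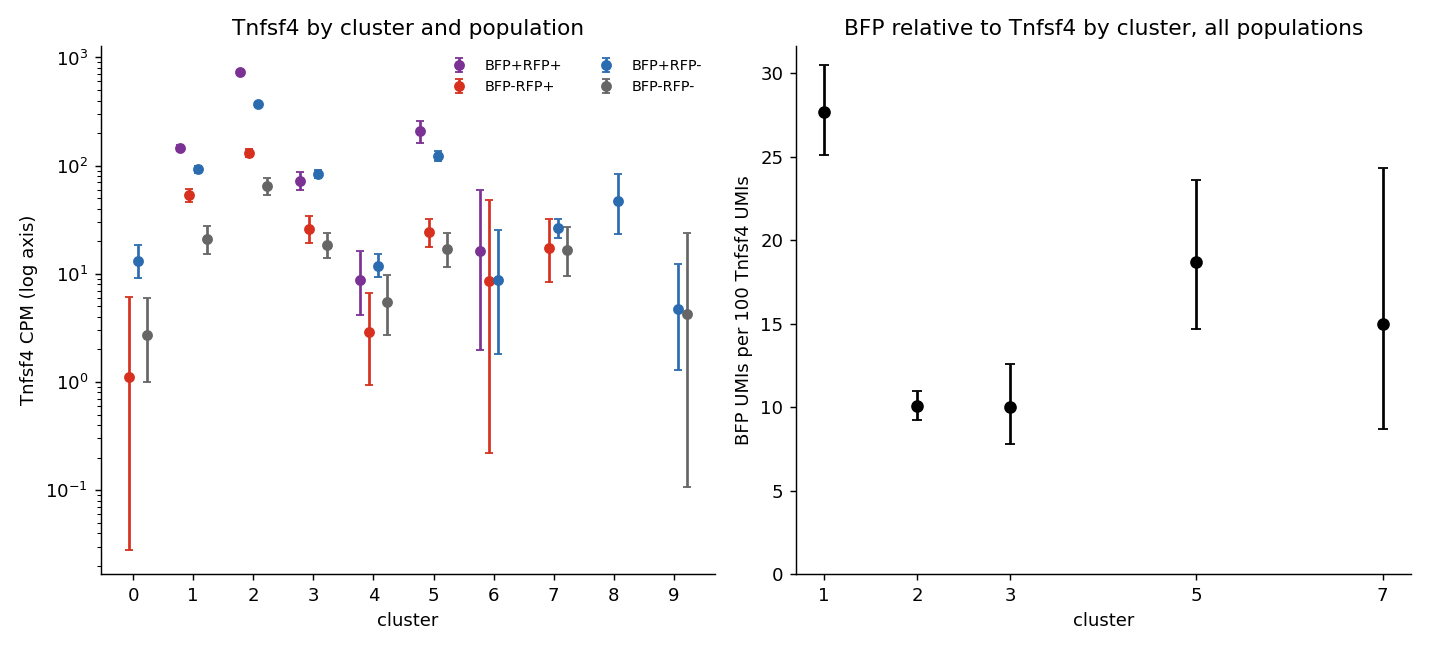
Left, Tnfsf4 in UMIs per 1000000 mRNA UMIs (log axis) by cluster and sorted population, for groups of at least 20 cells whose summed Tnfsf4 count is above 0. Right, BFP UMIs per 100 Tnfsf4 UMIs in clusters with at least 100 Tnfsf4 UMIs, all populations together. Bars are exact 95% intervals. Cluster 2 has the highest Tnfsf4 level in each population, and cluster 1 has 27.7 BFP UMIs per 100 Tnfsf4 UMIs against 10.1 in cluster 2.

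The antibody tags place Tnfsf4 on surface phenotype. CD8a marks T cells and a subset of dendritic cells, CD11b and CD172a are integrin and signal-regulatory proteins of type 2 conventional dendritic cells, and CD301b is a lectin of a subset of dermal ones. The labels list the CD172a and CD301b antibodies as TotalSeq-C and TotalSeq-B and the others as TotalSeq-A. Each tag nevertheless went with its own gene. From the lowest to the highest of 5 equal bins of cells, set within each population by tag UMIs, Cd8a mRNA went from 1.36 to 71.5 CPM, Sirpa (CD172a) from 25.9 to 150 and Mgl2 (CD301b) from 4.57 to 43.1. Itgam (CD11b) had 0 UMIs in the lowest bin and 6.03 CPM in the highest.

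Over all cells, CD8a was the only one of the 4 tags along which Tnfsf4 was higher in each successive bin. Tnfsf4 measured 31.2, 54.9, 99.8, 132 and 190 CPM from the lowest to the highest bin. The log2 difference between the ends was 2.60 (2.45 to 2.76). It was 2.45 in BFP+RFP+ (83.0 to 455 CPM), 2.56 in BFP+RFP- (32.3 to 191 CPM), 2.50 in BFP-RFP+ (13.0 to 74.6 CPM) and 3.13 in BFP-RFP- cells (5.17 to 47.1 CPM). All 4 populations thus had more Tnfsf4 in the highest than in the lowest bin. The steps between were not all upward, with 76.0 then 74.6 CPM in the last 2 bins of BFP-RFP+ and 9.76 then 7.73 CPM in bins 2 and 3 of BFP-RFP- cells. BFP mRNA changed along the tag by 2.43 (2.05 to 2.85), and tdRFP by 0.51 (0.14 to 0.91).

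Depth and other cells also varied along the CD8a tag. Median depth was 11386 UMIs in the lowest bin and 18281 in the highest, and the lowest bin held 142 of the 296 cells of the T and NK-like and B-like clusters. Without those clusters the difference was 2.55, and with tag UMIs divided by the cell's mRNA UMIs it was 1.94. The unthinned share of cells with a Tnfsf4 UMI was 10.5% in the lowest bin and 41.1% in the highest.

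Along the other tags the pattern was weaker or not monotonic. With CD11b, Tnfsf4 peaked in the middle bin, at 95.6, 131, 152, 117 and 76.1 CPM, and the ends differed by -0.33 (-0.44 to -0.22) on the log2 scale. With CD172a it measured 129, 125, 111, 96.2 and 111 CPM, a difference of -0.21 (-0.31 to -0.12). With CD301b it measured 107, 139, 118, 88.8 and 115 CPM, a difference of 0.10 (0.00 to 0.19). Divided by mRNA UMIs, these tags gave -1.59, -1.44 and -1.28, and 10 bins in place of 5 gave -0.31, 0.47 and -0.17. The direction for CD172a and CD301b thus turned with the setting, while CD8a and CD11b kept theirs under each setting tried. The lowest CD11b and CD172a bins held 196 and 250 of the 296 cells of the T and NK-like and B-like clusters. For all 3 tags the unthinned share of cells with a Tnfsf4 UMI was higher in the highest bin, where cells were deeper. From the lowest to the highest bin it went from 17.0% to 22.9% with CD11b and from 20.9% to 30.9% with CD172a. With CD301b it went from 23.0% to 31.0%.

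CD172a separated Tnfsf4 in 1 population more than in the others. In BFP-RFP+ cells Tnfsf4 stood at 85.8 CPM in the lowest and 24.4 in the highest CD172a bin, a difference of -1.81 (-2.16 to -1.47). In BFP+RFP- cells it stood at 97.5 and 110 CPM. That the populations differ in this was not tested.

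Splitting each population at its median of CD8a and CD11b put most of the Tnfsf4 with CD8a. Cells with both tags high had 150 CPM and those with only CD8a high 161 CPM. Cells with only CD11b high had 42.3 CPM and those with both low 70.3 CPM. In all 4 populations both groups with CD8a high lay above both groups with CD8a low, the closest being 67.4 against 41.1 CPM in BFP-RFP+ cells. Split by CD172a in place of CD11b, the other populations kept this gap past their intervals. BFP-RFP+ cells had 37.4 CPM (32.6 to 42.8) with both tags high and 29.0 (23.6 to 35.3) with only CD172a high. Those with only CD8a high had 119 CPM (108 to 131).

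**Figure D4:**
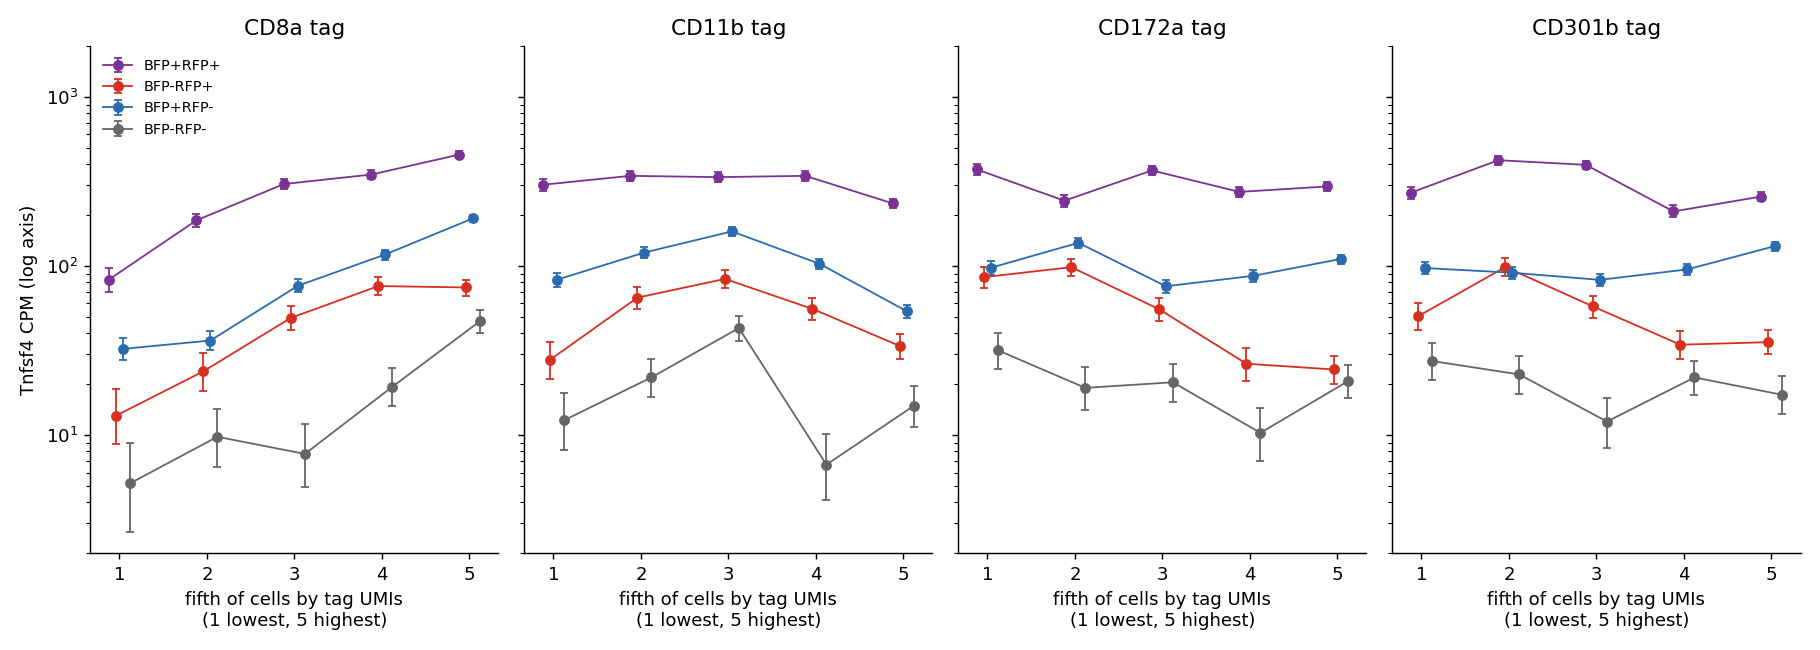
Tnfsf4 in UMIs per 1000000 mRNA UMIs (log axis) in 5 equal bins of cells by the UMIs of each antibody tag, set within each sorted population, with exact Poisson 95% intervals. Along CD8a all 4 populations are higher in the highest than in the lowest bin, from 83.0 to 455 CPM in BFP+RFP+ and from 5.17 to 47.1 CPM in BFP-RFP- cells. Along CD172a and CD301b the direction differs between populations. Along CD301b it is up by 0.43 on the log2 scale in BFP+RFP- cells. Along CD11b it is up by 0.27 in BFP-RFP+ (-0.16 to 0.72) and in BFP-RFP- cells (-0.40 to 1.00), with intervals that span no change.

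Barcodes with molecules of a pair of hashtags give a further view of the reporter counts. In 679 barcodes with no hashtag at 80%, past the depth and mitochondrial limits, the median depth was 27611 UMIs against 14600 in kept cells. Those with a second hashtag of at least 20% were taken by pair. Where 1 of the 2 populations was RFP+, tdRFP stood between both: 11.4 CPM for BFP+RFP+ with BFP+RFP-, 13.8 for BFP+RFP+ with BFP-RFP-, 9.60 for BFP-RFP+ with BFP+RFP- and 10.2 for BFP-RFP+ with BFP-RFP-. Where both were RFP+ it was 25.6 CPM (19.3 to 33.3). Where both were RFP- it was 2.53 CPM (1.31 to 4.42, 12 UMIs in 176 barcodes), above the 0.169 and 0.672 CPM of those populations.

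**Figure D5:**
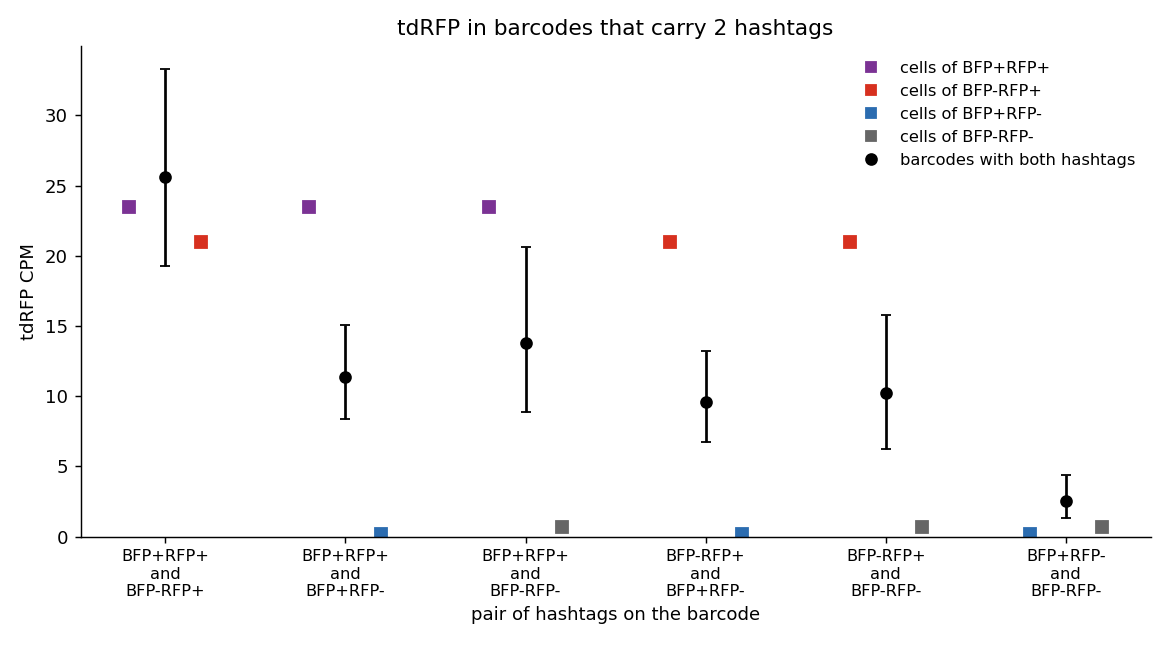
tdRFP in UMIs per 1000000 mRNA UMIs in barcodes that carry 2 hashtags, by pair of hashtags (circles, exact Poisson 95% intervals), beside the level in kept cells of each population of the pair (squares). Pairs of 1 RFP+ and 1 RFP- population stand at 9.60 to 13.8 CPM, and the pair of both RFP- populations at 2.53 CPM.

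The other genes of OX40L signalling and of its induction were compared as a list of 35: the receptor Tnfrsf4, the TSLP receptor chain Crlf2 with Il7r, their JAK and STAT genes, TRAF adaptors, NF-κB genes and receptors of the IL-1 family. A gene was counted where it differed by a fold of 1.5 or more and had at least 100 UMIs in the pair of populations. For BFP among RFP+ cells 1 of 33 was higher and 2 were lower, where 1.85% of all 9463 genes were higher and 7.13% lower. For BFP among RFP- cells none of 33 passed in either direction, where 1.83% and 3.97% of 10237 genes did. For RFP among BFP+ cells 1 of 33 was higher and 1 lower (3.48% and 5.27% of 10139 genes), and among BFP- cells none of 32 was higher and 1 lower (4.03% and 2.66% of 9612 genes). In either direction, 8.98%, 5.79%, 8.75% and 6.69% of all genes passed in these 4 comparisons. The list's shares lay near those of all genes, and its median log2 differences were -0.03, -0.07, 0.01 and -0.02 where all genes had -0.09, -0.07, -0.03 and -0.01. With TMM scaling, a trimmed-mean method that moved the median of all genes from -0.09 to 0.01, the share of higher genes among those past the fold was 34.8% in place of 20.6% for BFP among RFP+ cells. It was 45.4% in place of 31.5% for BFP among RFP- cells.

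A single gene of the list passed in the same direction in both states of the other reporter. Traf5, an adaptor of OX40 and related receptors, was lower in RFP+ cells, at 20.2 CPM in BFP+RFP+ against 34.4 in BFP+RFP- and 27.3 in BFP-RFP+ against 41.5 in BFP-RFP- cells. These are log2 differences of -0.76 and -0.60, and with a stricter hashtag limit of 95% no list gene passed among BFP- cells. A further 3 genes passed in at least 1 comparison and are named here after their values were seen. Ikbke, an IκB kinase-related kinase, was at 4.81 CPM in BFP+RFP+ cells and 2.67 to 3.23 in the others, and passed for BFP among RFP+ and for RFP among BFP+ cells. Without the T and NK-like and B-like clusters, and also with the hashtag limit of 95%, 0 list genes were higher for BFP among RFP+ cells. Myd88, the adaptor of IL-1 family and Toll-like receptors, was at 8.70 CPM in BFP+RFP+ and 14.5 in BFP-RFP+ cells, and the IL-18 receptor chain gene Il18r1 at 7.28 and 11.9 CPM. The receptor gene Tnfrsf4 itself was at 161 CPM in BFP+RFP+, 144 in BFP-RFP+, 142 in BFP+RFP- and 124 in BFP-RFP- cells, and Crlf2 at 17.3 to 21.0 CPM, all within the fold of 1.5.

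The genes whose level was most like that of Tnfsf4 were ranked by Pearson's r of log2(CPM + 10) over 30 groups of at least 30 cells, each a cluster within a population, among 6312 genes. The groups share populations and clusters, so r is a description. Il6, the cytokine interleukin 6, had the highest r at 0.83. It measured 29.2 CPM in BFP+RFP+, 12.9 in BFP-RFP+, 10.8 in BFP+RFP- and 7.19 in BFP-RFP- cells. The next were Nrg2 (0.79), Pla1a (0.78), Tnfsf9 (0.78), Samd4 (0.78), Procr (0.77), Plscr1 (0.75), Cdk5r1 (0.75), Nrg1 (0.74) and Dact3 (0.74). Tnfsf9 is the gene of another TNF-family ligand, 4-1BBL, Procr is the protein C receptor, and Nrg1 and Nrg2 are neuregulins. All 10, chosen over groups of these same populations, had their highest level in BFP+RFP+ and their lowest in BFP-RFP- cells, which that choice favours. Most of them, unlike Tnfsf4, differed more with RFP than with BFP: Tnfsf9 differed by 1.13 and 0.96 with RFP and by 0.47 and 0.30 with BFP, on the log2 scale. Samd4 did not, at 0.87 and 0.72 with RFP and 0.88 and 0.73 with BFP. The lowest r belonged to Ttc39b (-0.67), Prxl2c (-0.64), Ppat (-0.62), the oxidative stress sensor Keap1 (-0.62) and Rbmx (-0.61). Ttc39b measured 7.57 CPM in BFP+RFP+ and 34.0 in BFP-RFP- cells. Over the same groups r was 0.90 for BFP, 0.71 for SV40PolyA and 0.24 for tdRFP.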

How the data were processed

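The authors deposited raw UMI counts per gene and barcode, and the header of their file names Cell Ranger 7.0.0. The build GRCm39 (mm39) is named in the submitters' processing notes. For the reference sequences of BFP, tdRFP and SV40PolyA, and the rule that called barcodes as cells, nothing is stated in the material used. Coordinates were not used. Counts of antibody and hashtag barcodes entered no mRNA total. Of 6079 barcodes, 699 had no hashtag at 80%, 213 others had under 1000 mRNA UMIs and 144 others over 10% mitochondrial UMIs. HTODemux in Seurat 5.3.0 called 4639 (92.4%) of the 5023 kept cells as singlets of the same population and 0 as singlets of another. Doublets of cells from 1 population cannot be seen by hashtag and were not removed, and no other doublet caller was run. Gene names came from the feature list, and 22404 of its 22548 IDs were in a table of mouse gene names.

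CPM was computed from summed counts. Log2 ratios used a pseudocount of 0.5 UMI. Intervals were Poisson (levels), conditional binomial (ratios) and Clopper-Pearson (shares), at 95%. Total mRNA counts were 14140272, 15746616, 35590897 and 14877282 for hashtags 1 to 4, and 3 UMIs correspond to 0.0843 to 0.212 CPM. A gene counted as past the fold at 1.5 with at least 100 UMIs in the pair. Cells were clustered with scanpy 1.11.5 (10000 UMIs per cell, 2000 variable genes without the 4 features and Siglech, 30 principal components, 15 neighbours, Leiden resolution 0.5), and a cluster was named where it rested on at least 3 raised markers of a type and no other type had more among its 10 leading genes. TMM factors came from edgeR 4.0.16. Ratios and likeness were tested on simulated Poisson counts without variation between cells. This is the model behind the intervals, so the simulation could not test them for transcripts held by few cells.

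Besides the 4 features, the genes named are the 10 most and 5 least like Tnfsf4 (at least 1000 UMIs, without gene models, mitochondrial and ribosomal protein genes), list genes past the fold in the same direction in both states of the other reporter, the genes of the tagged proteins, Siglech and cluster markers. The features and lists were chosen with earlier results of these data known. Alternatives covered the hashtag limit, depth, mitochondrial limit, clusters left out, scaling, pseudocount, thinning, tag scale and bins, gene minimum, fold and likeness measure. Removal of macrophage-like clusters and the split of cluster 2 by them, which could be named only at resolution 1.0, and removal of the 1 percent of cells with most tag UMIs were added after seeing the data.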

Additional observations from a re-analysis of the deposited data

Results flagged for a closer look

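The summed level of Tnfsf4 along the CD172a tag went in opposite directions in the sorted populations, by more than counting error on each side. The log2 difference between the highest and the lowest of 5 bins of cells was -0.33 in BFP+RFP+, -1.81 in BFP-RFP+ and -0.61 in BFP-RFP- cells, and 0.17 (0.01 to 0.33) in BFP+RFP- cells. Along the CD301b tag it was -0.51 in BFP-RFP+ and -0.66 in BFP-RFP- cells, against 0.43 in the BFP+RFP- population. In BFP+RFP- cells, 122 of the 437 cells of the lowest CD172a bin were in the T and NK-like and B-like clusters, against 1 in the highest. Over all populations, the CD172a difference was -0.65 without those clusters in place of -0.21. The differences between populations were not tested, and each population is 1 sample.

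Il18r1, a receptor chain gene of the IL-1 family, was lower in RFP+ than in RFP- cells among BFP+ cells, with a log2 difference of -0.41, and higher among BFP- cells, with 0.45. This difference was not tested.

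Barcodes that carried the hashtags of both RFP- populations, which enter no comparison between populations, had tdRFP at 2.53 CPM (1.31 to 4.42), above the 0.169 CPM of BFP+RFP- and the 0.672 CPM of BFP-RFP- cells.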

How the results depend on the processing

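No paired analysis was possible because each sorted population is a single sample. For the ratios of the 4 features between populations, 165 of 176 values under other settings moved by less than counting error and none changed sign past the fold. The same mix of clusters covered only the 6 with at least 20 cells in every population. With it, the log2 difference of Tnfsf4 was 2.13 (BFP among RFP+ cells), 0.73 (RFP among BFP+ cells) and 0.93 (RFP among BFP- cells). That of BFP was 0.71 (RFP among BFP+ cells). That of SV40PolyA was 0.89 (BFP among RFP+ cells) and 1.46 (RFP among BFP+ cells). HTODemux singlets gave 2.34 for Tnfsf4 (BFP among RFP+ cells). A mean over single cells gave 1.71 for Tnfsf4 (RFP among BFP+ cells) and 0.39 for tdRFP (BFP among RFP+ cells). Without the deepest 5% of cells, Tnfsf4 gave 1.70 (RFP among BFP+ cells) and BFP 2.20 (RFP among BFP- cells). The share of cells with a Tnfsf4 UMI, in the order of hashtags 1 to 4, was 46.2%, 18.3%, 27.1% and 9.07% without thinning, 23.0%, 6.90%, 10.6% and 3.36% at 2500 UMIs and 45.7%, 16.1%, 25% and 7.67% at 10000 UMIs. Thinning to 10000 UMIs left out 163, 247, 449 and 258 cells in that order, so depth and the set of cells changed together. Their parts in these moves were not tested. The order of populations was kept in each setting.

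Tnfsf4 along the tags, as the log2 difference between the highest and the lowest bin, depended on the setting for all 4 tags. CD8a kept its direction, between 1.94 and 3.13, and CD11b its own, between -1.61 and -0.31. Tag UMIs per mRNA UMI gave 1.94 (CD8a), -1.59 (CD11b), -1.44 (CD172a) and -1.28 (CD301b). A centred log ratio gave -1.61 (CD11b), -0.97 (CD172a) and -1.08 (CD301b). Bins over all populations together gave 3.09, -1.20, -0.96 and -0.73 in the order CD8a, CD11b, CD172a and CD301b. Use of 10 bins gave 3.13 (CD8a), 0.47 (CD172a) and -0.17 (CD301b). Without the T and NK-like and B-like clusters the values were -0.49 (CD11b), -0.65 (CD172a) and -0.08 (CD301b), and without the macrophage-like ones too -0.49, -0.58 and -0.10. A hashtag limit of 95% gave 2.80 (CD8a), -0.49 (CD11b) and -0.02 (CD301b). A mean over single cells gave 1.94 (CD8a), -0.52 (CD11b) and -0.32 (CD172a), and leaving out the 1 percent of cells with most tag UMIs gave -0.11 (CD172a). The cause was not tested.

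The counts of genes past the fold, in the order BFP among RFP+, BFP among RFP-, RFP among BFP+ and RFP among BFP- cells, were 850, 593, 887 and 643. They were 1774, 1393, 1746 and 1457 with a minimum of 20 UMIs, 246, 174, 384 and 192 with 500 UMIs, and 254, 190, 269 and 165 at a fold of 2. For the OX40L list, the counts with 20 UMIs were 1, 4 and 2 in the last 3 comparisons. With 500 UMIs they were 0 for BFP among RFP+ and 1 for RFP among BFP+ cells. At a fold of 2 they were 0 in the 3 comparisons that had any. A hashtag limit of 95% gave 0 for RFP among BFP- cells. Of the 10 genes most like Tnfsf4, 6 stayed among the 10 at Leiden resolution 1.0, 6 with groups of at least 15 cells and 6 with Spearman's rho.

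All cells come from 1 pool, so the spread between mice and captures is unknown. BFP and tdRFP, with 1332 and 679 UMIs in all, limit the precision of every value by cluster.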

Other observations

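The CD8a tag itself differed between the sorted populations. Its median was 121 UMIs per cell in BFP+RFP+ and 63.0 in BFP-RFP+ cells, against 42 in BFP+RFP- and 40.0 in BFP-RFP- cells. CD11b went the other way, with 25, 39.0, 46.0 and 55.5 UMIs in the same order. In cluster 2, where Tnfsf4 was highest, the median CD8a tag was 187 UMIs in BFP+RFP+, 107 in BFP-RFP+, 138 in BFP+RFP- and 56.0 in BFP-RFP- cells. A high CD8a tag was not particular to cluster 2. Cluster 1, with Tnfsf4 at 91.7 CPM, had medians of 176, 126, 84.0 and 54.5 UMIs in the same order.

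Tnfsf4 within a population varied with how pure the hashtag signal of a cell was. BFP-RFP+ cells with a top hashtag of 98% or more had 27.4 CPM and those at 95 to under 98% had 66.4 CPM. In BFP+RFP- cells the values were 134 and 90.6 CPM, the opposite order. Cells at 98% or more were deeper, with a median of 18708 against 13902 UMIs and 18379 against 14366 UMIs.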
